A study of Mus musculus with 21 samples.

Results

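The genes described here are 36 genes of glycolysis and of the response to low oxygen, taken by symbol from the 34478 genes of an RNA-seq table of murine pancreatic ductal adenocarcinoma (PDAC) cells. All 36 were in the table and all 36 passed the filter on low values, under which 19300 genes were tested. They were chosen by symbol, not by how they changed, but with earlier results of these data known.

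The cells were 6 primary cell lines (#3, #4, #6, #7, #9 and #10) grown out of pancreatic tumours of a mouse model whose alleles include Ptf1awt/Cre and Trp53loxP/loxP, in which Cre driven from the Ptf1a locus deletes Trp53 in the pancreas. All states share this genotype and the high-glucose medium with fetal bovine serum, and the labels mention no culture at low oxygen. Parental cells (6 samples) had never met the MEK inhibitor (MEKi) trametinib. Resistant cells (6 samples) were grown continuously in trametinib after stepwise selection. The study describes the resistant populations as clonally expanded, from genome sequencing of lines #3 and #9. Reverting cells were resistant cells cultured without the drug and named by the number of drug-free passages, P5 (3 samples, lines #3, #7 and #9) and P12 (6 samples). For P5 of lines #7 and #9 the labels also give 12 drug-free passages, so P5 is described without a test. Each line was sequenced once in each state, so the 6 lines are the replicates.

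Glycolysis turns glucose into pyruvate and lactate in the cytosol. Its rate is set by glucose uptake, by hexokinase and phosphofructokinase, and by enzymes that make or break fructose-2,6-bisphosphate, the activator of phosphofructokinase. At low oxygen the prolyl hydroxylases of the Egln family no longer mark the HIF alpha subunits for destruction. HIF then binds short core sequences, ACGTG among them, near many glycolytic and angiogenic genes. In pancreatic tumours signalling through MEK and ERK is known to raise the transcription of glucose transport and glycolytic enzyme genes.

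The deposited values are gene-level counts that the authors normalised with DESeq2, and they are called normalised counts here. The sums per sample lay between 2.86e+07 and 3.71e+07. The spacing of low values put the depth at about 24.0 to 42.6 M reads, so that 3 reads corresponded to about 2.31 to 4.07 normalised counts. Only 55.0% to 73.8% of low values lay on that spacing, so for a single gene this floor is approximate. As a check of the drug, 14 genes known to be driven by MEK-ERK signalling were compared, and 14 of 14 had lower fitted levels in resistant than in parental cells. Their summed level was 76008 to 87392 in parental, 5002 to 44564 in resistant and 48759 to 75840 in P12 cells. The highest resistant sum, that of line #7, was mostly Epha2 (22346), Ccnd1 (10081) and Epha4 (6415). Etv4, Etv5 and Spry4 were 1.28, 5.41 and 7.12 there. Dusp6, Dusp4 and Spry2 were 681, 333 and 400 in resistant line #7, each the highest of the resistant samples. In the parental cells of that line they were 9449, 1975 and 1662. Single lines went against the fitted direction, namely line #7 for Epha2, Epha4 and Fosl1 and line #9 for Epha4. The cells were also checked against markers of cell types. The sum of 6 epithelial markers had a median of 246719 in parental, 62431 in resistant and 50681 in P12 samples. Parental line #9 stood apart with 15942, and Epcam was at or under 3 reads in every parental, resistant and P12 sample. The sum of 5 fibroblast markers had a median of 450 in parental, 88039 in resistant and 22042 in P12 cells, with Lum at or under 3 reads in every parental and P12 sample. Blood markers summed to 136 to 2892 and endothelial markers to 15.8 to 2753 over all samples, with Cd3e at or under 3 reads in every parental sample. Both highest sums were resistant samples and rested mostly on 1 gene. Csf1r was 2530 in resistant line #10 against 39.7 in its parental cells, and Tek was 2512 in resistant line #6 against 1.29. Over the lines Tek was 0 to 15.8 in parental and 5.34 to 2512 in resistant cells. Line #7 had the highest epithelial sum and the lowest fibroblast sum among the resistant samples. The epithelial markers of line #7 did not move together. Krt19 was 44028 in parental and 98106 in resistant cells, while Krt7 went from 39499 to 150, the lowest resistant value. Cdh1 went from 53229 to 16401, and Krt8 and Krt18 were also lower.

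Promoter sequences are shown for the 3 members that passed the stricter of the call rules used below, Ldha, P4ha2 and Pfkfb3. They come from RefSeq on GRCm38.p6, the assembly that the labels call mm10, and run from 250 bases before to 50 bases after a transcript start, so that the last 50 bases are the beginning of the first exon. They are written 5′ to 3′ along the gene's strand, and capitals mark ACGTG, a form of the HIF core, searched on both strands. CACGT is thus a match on the other strand, and CACGTG, which is also an E-box, matches on both. No other form of the core was searched or marked.
Ldha, chr7:46845554-46845853, plus strand: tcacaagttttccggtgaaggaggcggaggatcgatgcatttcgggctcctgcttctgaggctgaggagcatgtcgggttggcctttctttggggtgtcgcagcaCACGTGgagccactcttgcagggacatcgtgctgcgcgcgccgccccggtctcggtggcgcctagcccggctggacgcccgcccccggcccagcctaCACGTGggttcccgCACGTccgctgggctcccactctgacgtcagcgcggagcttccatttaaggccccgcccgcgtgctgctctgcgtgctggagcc
P4ha2, chr11:54100674-54100973, plus strand: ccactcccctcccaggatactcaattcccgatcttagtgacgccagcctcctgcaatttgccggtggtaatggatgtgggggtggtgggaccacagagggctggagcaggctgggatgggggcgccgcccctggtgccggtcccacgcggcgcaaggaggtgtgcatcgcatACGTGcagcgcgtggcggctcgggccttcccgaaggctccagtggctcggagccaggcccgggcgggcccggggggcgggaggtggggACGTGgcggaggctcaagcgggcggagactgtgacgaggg
Pfkfb3, chr2:11553880-11554179, minus strand: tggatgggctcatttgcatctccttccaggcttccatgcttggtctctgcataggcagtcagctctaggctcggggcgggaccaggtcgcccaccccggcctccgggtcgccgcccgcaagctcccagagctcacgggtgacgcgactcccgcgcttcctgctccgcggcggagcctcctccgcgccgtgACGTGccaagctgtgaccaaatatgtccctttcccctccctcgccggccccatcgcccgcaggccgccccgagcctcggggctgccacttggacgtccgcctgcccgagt
The Ldha window held 3 separate matches, of which 2 overlap an E-box, the P4ha2 window 2 and the Pfkfb3 window 1. A second Pfkfb3 window, chr2:11502041-11502340, held 1 match that overlaps an E-box, and a second Ldha window held none. RefSeq windows were found for 34 of the 36 members, all but Epas1 and Ndrg1. At least 1 match was present in 24 of these 34 genes (70.6%) against 21.8% of all 27025 genes with a window, and in 56.2% of 48 member windows against 19.6% of all 32851 windows. The members include genes known as HIF targets, and a match is a run of letters, not a measured binding site. The genes set beside the members were not matched to them for expression or base composition.

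The first comparison asked which members differed between resistant and parental cells. Resistant cells had less Ldha, the lactate dehydrogenase that makes lactate from pyruvate, and more P4ha2, a catalytic subunit of the prolyl 4-hydroxylase that modifies collagen. Ldha was at 0.316 times and P4ha2 at 4.96 times the parental level. These 2 of 36 members (5.56%) passed the stricter rule, an adjusted p under 0.01 with a log2 change above 1 or below -1, against 5.3% of all genes tested (2.57% higher and 2.73% lower), so the count was near the background. At an adjusted p under 0.05 and any size, 6 of 36 members (16.7%) passed against 15.6% of all genes, of which 7.73% were higher and 7.9% lower. With the size limit kept at that p, 4 of 36 passed against 11.3% of all genes. Pfkfb3 rose together with P4ha2, and Pdk1, Pfkl and Eno1 fell together with Ldha. When the cell line was added to the model as a block, 6 members (16.7%) passed the stricter rule against 10.5% of all genes, namely Ldha, P4ha2, Pdk1, Pfkfb3, Pfkp and P4ha1. With the block 11 members (30.6%) passed at 0.05 against 26% of all genes, which added Hk2, Eno2 and Pkm to those already named. The stricter rule gave 4 members without line #9, where the share of all genes by that rule was not computed. With any one line left out the number at 0.05 lay between 3 (without line #3) and 10 (without line #7). Over all genes 1624, 2938 and 3280 passed at 0.05 without line #3, #7 and #9, the last with 9 members. All p-values here come from limma with Benjamini-Hochberg adjustment over the 19300 genes. In these bulk samples fewer cells expressing a gene and less RNA of it per cell cannot be told apart.

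**Figure D1:**
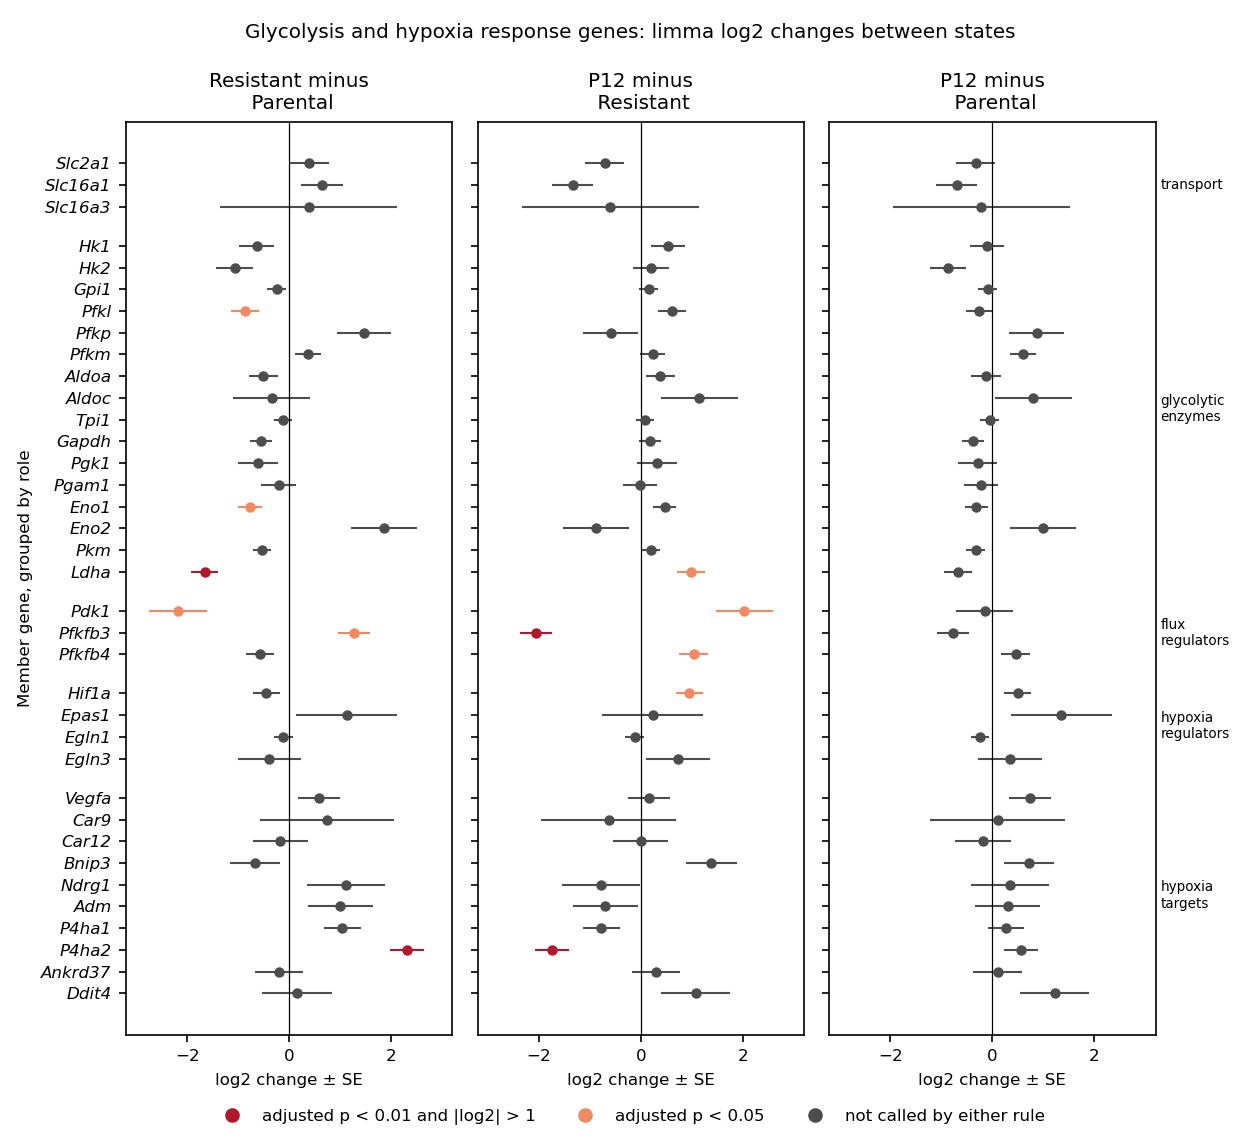
Log2 change with its standard error (x axis) of each of the 36 members (y axis, grouped by role) for the 3 comparisons, from the limma fit of all 21 samples. Red points mark members past the stricter rule, 2 in each of the first 2 panels, orange points those past an adjusted p of 0.05 only, and no point is coloured for P12 minus Parental.

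Among the glycolytic enzymes only Ldha passed the stricter rule without the block, and Pfkp passed as well with it. The normalised count of Ldha was 20828 to 34870.1 (median 29074) in parental cells and 4594 to 16188 (median 8862) in resistant cells. Every resistant sample lay below every parental one, and the resistant sample of line #7 was the nearest to the parental range. The log2 change was -1.66 (SE 0.27, limma adjusted p = 0.000513), and it was lower in 6 of 6 lines. With any one line left out the log2 change stayed between -1.92 and -1.41 and the stricter call was kept.

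The other glycolytic enzymes were mostly lower, by smaller amounts. Of 16 enzymes, Ldha included, 13 had a lower fitted level in resistant cells and 3 a higher one, with a median log2 change of -0.52. Over all genes tested the median was -0.0049, and 49.6% were higher. Apart from Ldha, Pfkl and Eno1 passed at 0.05. Pfkl, the liver-type phosphofructokinase, was 2389.7 to 5058 (median 3779.7) in parental and 1009 to 3002 (median 2274) in resistant cells. The ranges overlapped, since line #9 alone was higher in the resistant state. Its log2 change was -0.87 (SE 0.27, limma adjusted p = 0.0353), and the call was lost without line #3, #4, #6, #7 or #10, with an adjusted p of up to 0.116. Eno1, the common enolase, was 36038 to 59363 (median 48897) in parental and 15806 to 42898 (median 28621) in resistant cells. Here line #7 was the exception among the 6 lines, with 41622 parental and 42898 resistant. The fitted log2 change came to -0.78 (SE 0.23, limma adjusted p = 0.0288), and the call was lost without line #3, #6 or #10, with an adjusted p of up to 0.146.

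Hk2, Pkm, Pfkp and Eno2 passed only with the cell line as a block. Hk2, an inducible hexokinase that traps glucose in the cell, was 2729 to 5424 (median 3869) in parental and 1141 to 3453 (median 1871) in resistant cells. In lines #3, #4, #6 and #10 the resistant value was under every parental value, while in lines #7 and #9 it was slightly above its own parental value. On the log2 scale the change was -1.07 (SE 0.36, limma adjusted p = 0.0507), with an adjusted p of 0.0206 with the block. Pkm, the pyruvate kinase of most proliferating cells, was 65839 to 94053 (median 80756) in parental and 34399 to 74966 (median 61837) in resistant cells. Its values overlapped between the states, and line #7 again was the only line that was higher in the resistant state. This gave a log2 change of -0.53 (SE 0.18, limma adjusted p = 0.0501), just outside the threshold, and the adjusted p was 0.0395 with the block.

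Pfkp and Eno2 went the other way. Pfkp, the platelet-type phosphofructokinase, was 529.6 to 1346 (median 788) in parental and 1316 to 3394 (median 2305) in resistant cells. It was higher in the resistant state in 6 of 6 lines, and the 2 ranges touched only because parental line #9 exceeded resistant line #10. The change on the log2 scale was 1.46 (SE 0.53, limma adjusted p = 0.0696), and with the block the standard error was 0.35 and the adjusted p 0.00735. Eno2, the neuronal enolase, was 34.9 to 748 (median 133) in parental and 258 to 1269 (median 397) in resistant cells, and line #9, the highest parental sample, was the only line with a lower resistant value. In the limma fit the log2 change was 1.86 (SE 0.65, limma adjusted p = 0.056), with an adjusted p of 0.0403 with the block.

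For the remaining enzymes no call was made by either rule, with or without the block. The log2 changes were -0.64 for Hk1, -0.25 for Gpi1, -0.51 for Aldoa, -0.34 for Aldoc, -0.13 for Tpi1, -0.56 for Gapdh, -0.61 for Pgk1 and -0.21 for Pgam1, and 0.37 for Pfkm. Gapdh, often used as a reference gene, was 65095 to 128911 (median 114280.0) in parental and 35778 to 109881 (median 67107) in resistant cells, with an adjusted p of 0.0879. It was lower in 5 of 6 lines, and only line #7 was higher. Gapdh and Pgk1 have near-identical copies elsewhere in the genome, whose values in the table summed to 17.3% to 22.9% of Gapdh and 5.32% to 27.7% of Pgk1, so how reads were split between them is uncertain. Adding the copies to each member changed no call.

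Among related enzymes that are members, levels were compared per kilobase of the longest annotated coding transcript, as a description. Of the summed level of Pfkl, Pfkp and Pfkm, Pfkp made up 10.3% ± 4.27 (SD, n = 6) in parental and 25.9% ± 6.53 in resistant cells, a higher share in 6 of 6 lines. Pfkl made up 49.8% ± 10.9 in parental and 25.8% ± 5.79 in resistant cells, a lower share in 6 of 6 lines. Pfkm, the muscle-type form, took 40.0% ± 10.6 and 48.3% ± 9.43. The Pfkm share was higher in 5 of 6 lines. In line #3 it went from 26.9% to 56.2% and in line #9 from 45.9% to 52.4%, while the Pfkp share of these lines went from 9.68% to 26.9% and from 18.2% to 19.6%, so that in both the larger gain was that of Pfkm. In P12 cells the Pfkl share was 32.9% ± 6.94, above the resistant share in 6 of 6 lines and below the parental share in 6 of 6. The Pfkp share was 18.5% ± 14.1 in P12 cells and differed widely between lines, from 4.32% to 41.6%. Hk1 made up 66.4% ± 6.86 of the sum of Hk1 and Hk2, without Hkdc1, in parental, 72.5% ± 6.91 in resistant and 76.5% ± 7.31 in P12 cells. Aldoa made up at least 95.04% of the sum of Aldoa and Aldoc in every sample, and Eno1 at least 96.4% of the sum of Eno1 and Eno2. Eno3, the muscle-type enolase of the wider list described below, is not in that sum and was 876 to 3530.4 (median 1382) in parental and 427 to 1279.6 (median 955) in resistant cells in normalised counts.

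**Figure D2:**
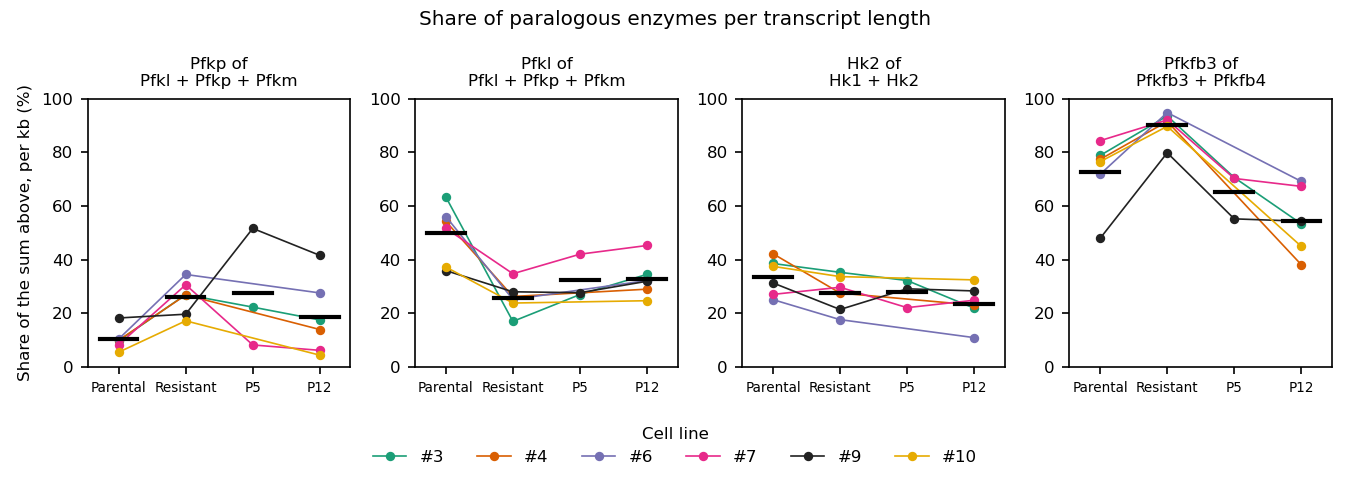
Share of an enzyme in the per-kilobase sum of the members named above each panel (y axis, percent) in the 4 states (x axis), with 1 coloured line per cell line and black bars for the mean of each state. From parental to resistant cells the mean share moved from 10.3% to 25.9% for Pfkp, from 49.8% to 25.8% for Pfkl, from 33.6% to 27.5% for Hk2 and from 72.9% to 90.3% for Pfkfb3.

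The flux regulators moved in both directions. Pdk1, the kinase that blocks pyruvate dehydrogenase and so the entry of pyruvate into mitochondria, was 1388 to 2481 (median 1651) in parental and 44.6 to 1310.4 (median 476) in resistant cells. The ranges did not overlap, yet the size of the difference varied between lines. Line #9 went from 2481 to 44.6 and line #4 from 1388 to 1310.4. The log2 change was -2.18 (SE 0.56, limma adjusted p = 0.0131). With the block the adjusted p was 0.00626, and without line #3 it was 0.0651, so the call at 0.05 was lost there.

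Pfkfb3, which makes fructose-2,6-bisphosphate and so speeds up phosphofructokinase, was 505 to 2048 (median 1182) in parental and 1282 to 3638 (median 2877) in resistant cells. It was higher in the resistant state in 6 of 6 lines. The ranges overlapped through line #9, whose resistant value was the lowest of the resistant samples although its own parental value was lower still, at 505. The fitted log2 change came to 1.27 (SE 0.31, limma adjusted p = 0.0102), or an adjusted p of 0.00208 with the block. Without any one line the log2 change stayed between 1.19 and 1.47 and the call at 0.05 was kept. Pfkfb4, its paralog, was 193 to 398 (median 274) in parental and 129 to 243 (median 194) in resistant cells, lower in 5 of 6 lines. Its log2 change of -0.58 did not pass (adjusted p = 0.177). Pfkfb3 accounted for 72.9% ± 12.9 (SD, n = 6) of the per-kilobase sum of the pair in parental and 90.3% ± 5.40 in resistant cells, a higher share in 6 of 6 lines. The other 2 genes of the family, Pfkfb1 and Pfkfb2, are in the wider list and not in this sum. Pfkfb2 was 626 to 973 (median 841) in parental and 843 to 1222 (median 971) in resistant cells, and Pfkfb1 199 to 293 (median 218) and 117 to 238 (median 126).

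**Figure D3:**
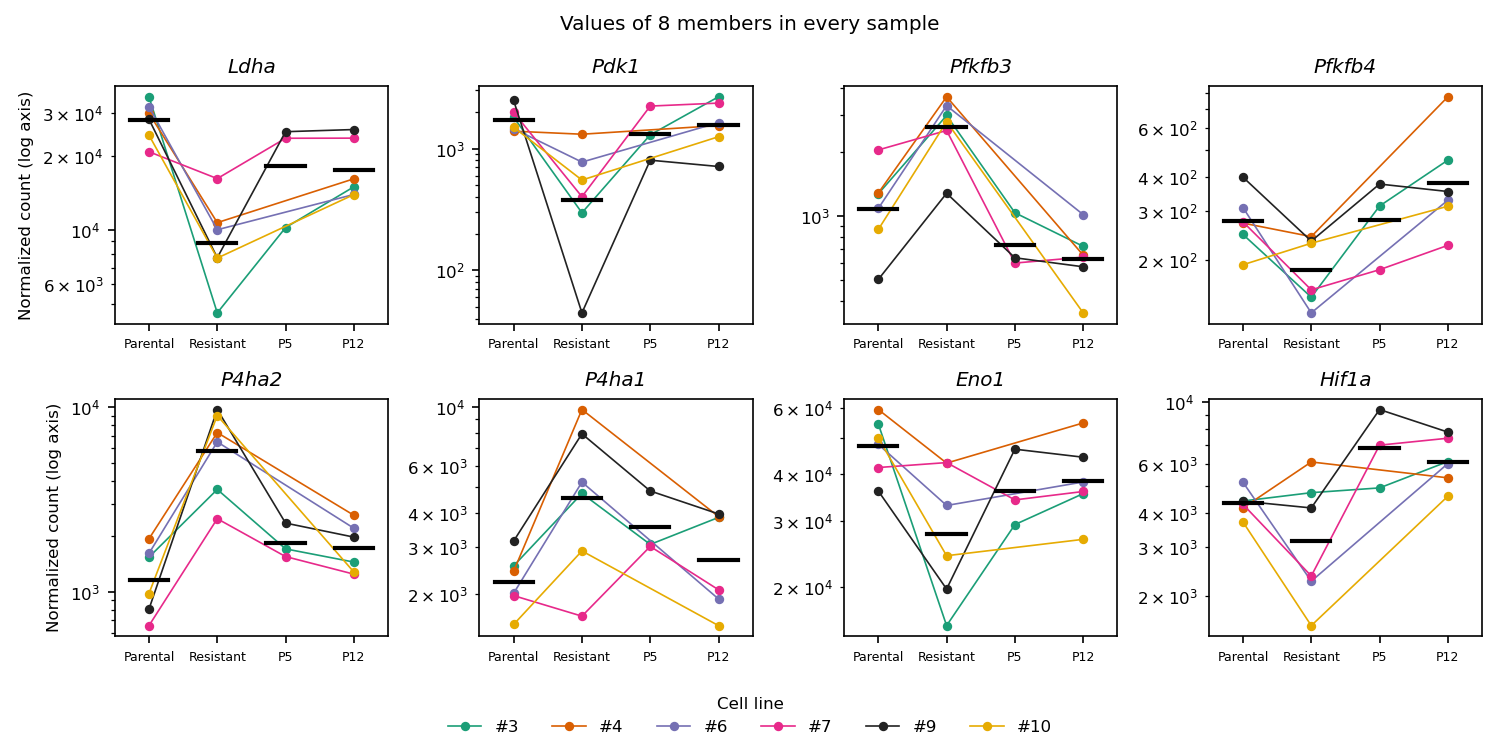
Normalised counts on a log axis (y axis) of 8 members in every sample by state (x axis), with 1 coloured line per cell line, joined over the states that were sequenced, and black bars for the geometric mean of each state. Ldha and Pdk1 dip in the resistant state while Pfkfb3 and P4ha2 peak there in each of the 6 lines.

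The transporters did not pass in this comparison. Slc2a1 (GLUT1), which brings glucose into the cell, had a log2 change of 0.39 (SE 0.38, adjusted p = 0.548) and was highest in resistant line #3, at 20921. Slc16a1 (MCT1) and Slc16a3 (MCT4) carry lactate across the membrane. Slc16a1 was 7805 to 17648 (median 9858) in parental and 11471 to 36158 (median 14876) in resistant cells, with a log2 change of 0.64 (SE 0.41, adjusted p = 0.318). Slc16a3 had a log2 change of 0.38 (SE 1.73, adjusted p = 0.914). Line #9 went from 175 in parental to 7.92 in resistant cells, and line #3 from 816 to 6043, in the opposite direction.

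The regulators of the hypoxia response did not pass either. Hif1a, which encodes the HIF-1 alpha subunit, was 3698 to 5142 (median 4338) in parental and 1567 to 6085 (median 3260.5) in resistant cells, with a log2 change of -0.45 (SE 0.26, adjusted p = 0.27). Lines #6, #7 and #10 were clearly lower in the resistant state, whereas lines #3 and #4 were higher. Epas1, which encodes HIF-2 alpha, was 33.0 to 497 (median 272) in parental and 122 to 1105 (median 382) in resistant cells. The ranges overlapped, line #7 was the only line with a lower resistant value, and the log2 change was 1.13 (SE 0.99, adjusted p = 0.492). The oxygen sensors Egln1 and Egln3 had log2 changes of -0.12 and -0.39. HIF alpha is controlled mainly at the level of the protein, which these data do not measure.

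Among the hypoxia targets the collagen prolyl 4-hydroxylase subunits stood out. P4ha2 was 655 to 1936 (median 1259) in parental and 2487 to 9717 (median 6887) in resistant cells. Every resistant sample lay above every parental one, with line #7 the lowest resistant sample. On the log2 scale the change was 2.31 (SE 0.33, limma adjusted p = 0.0002), or 3.36e-05 as the adjusted p with the block. It was higher in 6 of 6 lines and stayed between 2.05 and 2.53 with any one line left out. P4ha1, the other subunit gene among the members, was 1542 to 3155 (median 2225) in parental and 1656 to 9751 (median 4989) in resistant cells. Line #7 alone was lower in the resistant state. This gave a log2 change of 1.04 (SE 0.36, limma adjusted p = 0.0556), and the adjusted p was 0.00476 with the block, which passes the stricter rule. Of the 5 fibroblast markers, 4 were tested and 1, Dcn, was higher in resistant cells by the stricter rule, or 2 with the block, Dcn and Col1a1. Pdgfrb did not pass, with a log2 change of 2.91 (SE 2.35, adjusted p = 0.448), nor did Pdgfra, with -1.13 (SE 1.25, adjusted p = 0.599) and lower values in 3 of 6 lines. The summed level of the 5 ran from 95.4 to 7860 in parental and from 1875 to 329149 in resistant cells. Resistant line #7 was the lowest and resistant line #9 the highest in both that sum and P4ha2. Between these ends the order differed. Col1a1 and Dcn were higher in resistant line #3 than in resistant line #10, with Dcn at 51487 and 21970. P4ha2 was lower there, at 3585 in line #3 and 9017 in line #10. From parental to resistant line #7, P4ha2 went from 655 to 2487, Col1a1 from 438 to 446 and Dcn from 3.11 to 1424. In resistant line #9 the sum was mostly Col1a1, at 311103, while its Dcn value of 268 was the lowest of the resistant samples. Their part in the P4ha1 and P4ha2 results was not tested.

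The other 8 hypoxia targets did not move together. Vegfa, the angiogenic factor, had a log2 change of 0.58 (SE 0.41, adjusted p = 0.372), with resistant line #10 at 20357 and the other resistant samples at 3251 to 5841. The carbonic anhydrases Car9 and Car12, which buffer the pH at the cell surface, had log2 changes of 0.74 and -0.18. Car9, a common marker of hypoxia, was higher in lines #3, #4 and #6 and lower in lines #7 and #9. Bnip3, which acts in mitophagy, had a log2 change of -0.67 and was lower in 3 of 6 lines. Ndrg1, a stress-response gene, was 659.6 to 2287 (median 1894) in parental and 729 to 11806 (median 4222) in resistant cells. It was higher in 5 of 6 lines and lower in line #10, with a log2 change of 1.12 (SE 0.77, adjusted p = 0.357). Adm, the gene of the vasodilator adrenomedullin, had a log2 change of 1.00 from values of 2.33 to 79.0, where 3 reads correspond to 2.31 to 4.07. Ankrd37 and Ddit4, an inhibitor of mTORC1 signalling, had log2 changes of -0.20 and 0.15. Over the 10 targets 7 had a higher fitted level in resistant cells, with a median log2 change of 0.66, next to -0.0049 over all genes, and P4ha2 alone passed without the block.

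**Figure D4:**
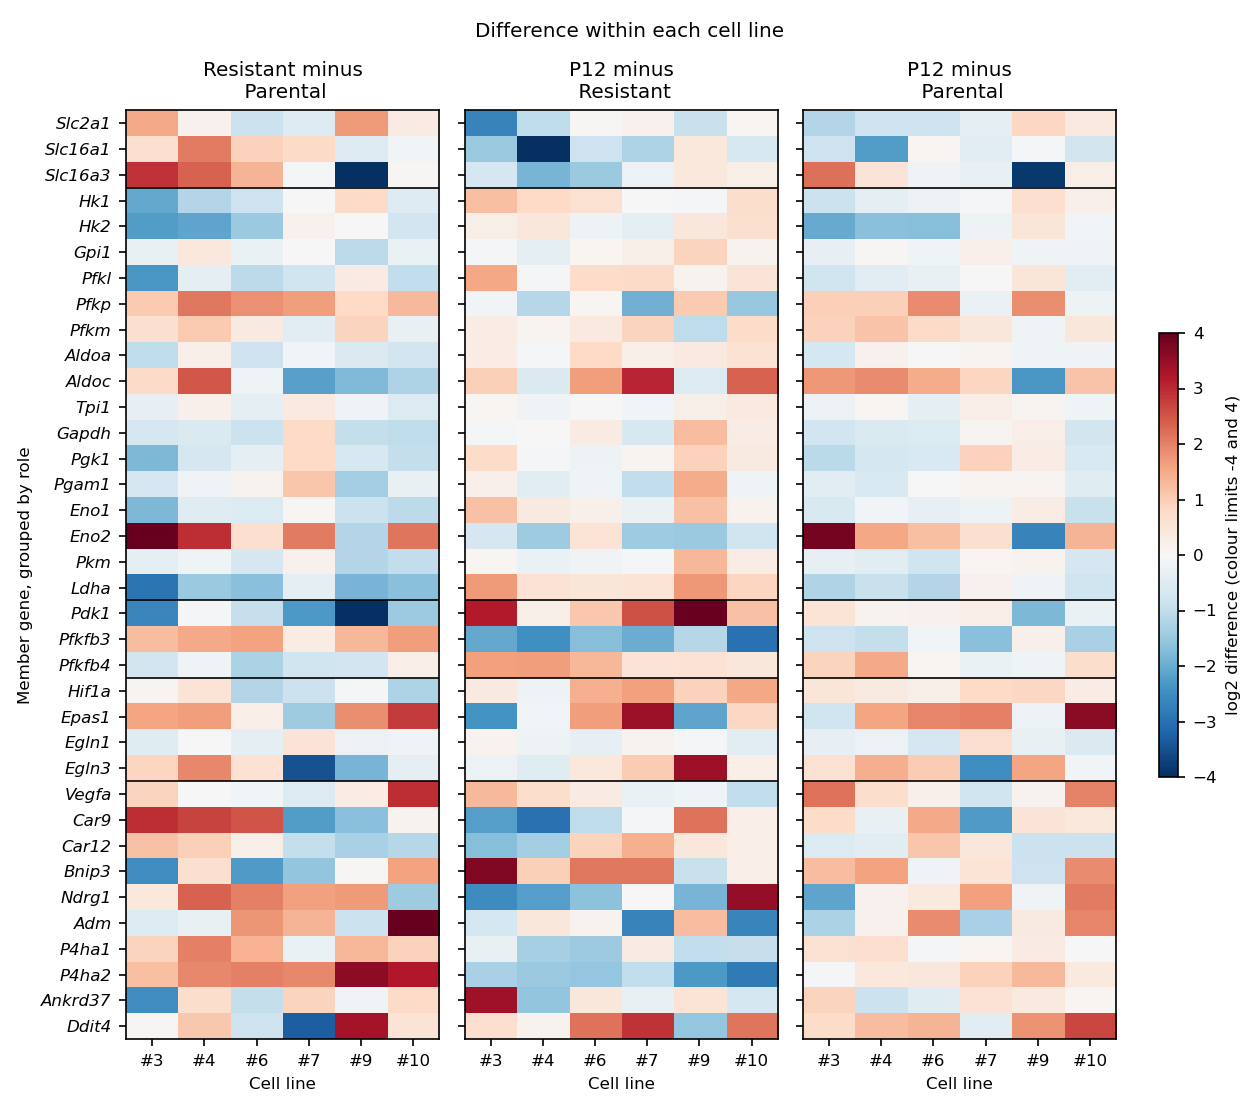
Log2 difference between 2 states within each cell line (columns) for the 36 members (rows, ordered by role and separated by black lines), with red for higher and blue for lower and colours saturating at -4 and 4. In the first panel P4ha2, Pfkfb3 and Pfkp are red and Ldha and Pdk1 blue in 6 of 6 lines, while Slc16a3, Car9, Egln3 and Ddit4 change colour between lines.

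The lines differed in how the members moved as a set. The median difference between resistant and parental cells over the 36 members was 0.49 on the log2 scale in line #4 and between -0.38 and -0.039 in the other 5 lines. Line #4 had 22 of 36 members higher, and line #9 had 22 of 36 lower. The members higher in every line were Pfkp, Pfkfb3 and P4ha2 (3 of 36, against 8.99% of all genes), and those lower in every line were Ldha and Pdk1 (2 of 36, against 9.49%). The spread between lines was larger in the resistant state. The median SD of the members' log2 values was 0.44 in parental, 0.82 in resistant and 0.59 in P12 cells, next to 0.51, 0.72 and 0.61 over all genes tested.

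The second comparison asked what happened after 12 passages without the drug. In P12 cells Pfkfb3 fell to 0.241 times and P4ha2 to 0.299 times the resistant level, and these 2 of 36 members (5.56%) passed the stricter rule against 2.13% of all genes (1.28% higher and 0.85% lower). At 0.05, 6 members (16.7%) passed against 6.22% of all genes, of which 3.2% were higher and 3.03% lower. Ldha, Pdk1, Pfkfb4 and Hif1a rose. With the size limit kept at that p, 4 of 36 passed against 4.91% of all genes. With the cell line as a block the stricter rule again gave Pfkfb3 and P4ha2, against 4.52% of all genes, and 8 members (22.2%) passed at 0.05 against 12.7%, which added Slc16a1 and P4ha1, both lower in P12 cells. The stricter rule gave 1 member without line #3, #4, #6 or #10, where the share of all genes by that rule was not computed. The rule of 0.05 gave 2 without line #3, #6 or #10. Over all genes 609, 626 and 627 passed at 0.05 without these lines, against 1201 with all lines. This comparison shares the resistant samples with the first one, so the directions of the 2 are not independent.

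Pfkfb3 was 352 to 1018 (median 649.6) in P12 cells, all below the lowest resistant sample, and lower in 6 of 6 lines. The change on the log2 scale was -2.05 (SE 0.31, limma adjusted p = 0.000693), and the stricter call was kept with any one line left out. In 5 of 6 lines the P12 value was also below that of the parental cells, but that difference did not pass, with a log2 change of -0.78 (SE 0.31, adjusted p = 0.241). Pfkfb4 was 226 to 775 (median 341) in P12 cells and higher than in resistant cells in 6 of 6 lines, although the ranges overlapped through line #7. In the limma fit the log2 change was 1.03 (SE 0.28, limma adjusted p = 0.0314). The call was lost without line #3, #4, #6 or #10, with an adjusted p of up to 0.163. The pair thus changed in opposite directions, and Pfkfb3 made up 54.5% ± 12.2 (SD, n = 6) of its per-kilobase sum in P12 cells, less than in resistant cells in 6 of 6 lines.

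P4ha2 was 1245 to 2597 (median 1712) in P12 cells and lower than in resistant cells in 6 of 6 lines. The ranges overlapped only because P12 line #4 exceeded resistant line #7. The log2 change was -1.74 (SE 0.33, limma adjusted p = 0.00388). The stricter call was lost without line #3, #4, #6, #9 or #10, where the adjusted p reached up to 0.0336 and so stayed under 0.05. P4ha1 was 1527 to 3981 (median 2970.1) in P12 cells, with a log2 change of -0.78 (SE 0.36, limma adjusted p = 0.236) and an adjusted p of 0.0407 with the block. The fibroblast marker sum was 224 to 123889 in P12 cells, with a lower median than in resistant cells. The markers did not move together, since Col1a1 and Dcn had lower values in P12 cells in 6 of 6 lines, while the median of Pdgfra went from 52.4 to 232 and that of Pdgfrb from 67.6 to 5099.9. Of the 4 tested, Dcn passed with the block, and the part of these markers in the P4ha1 and P4ha2 results was not tested.

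Ldha and Pdk1 moved back up. Ldha was 13936 to 25651 (median 15574) in P12 cells, higher than in resistant cells in 6 of 6 lines. Lines #7 and #9 had P12 values inside the parental range, and the other 4 lines stayed below it. The fitted log2 change came to 0.99 (SE 0.27, limma adjusted p = 0.0324). The call was lost without line #3, #4, #6, #9 or #10, with an adjusted p of up to 0.103. Pdk1 was 711 to 2660.3 (median 1588) in P12 cells, with a log2 change of 2.03 (SE 0.56, limma adjusted p = 0.0342), and it was higher than in resistant cells in 6 of 6 lines. That call was lost without line #3, #6, #7 or #10, with an adjusted p of up to 0.177.

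Hif1a mRNA was 4581 to 7794 (median 6054) in P12 cells, higher than in resistant cells in 5 of 6 lines and lower in line #4. On the log2 scale the change was 0.95 (SE 0.26, limma adjusted p = 0.0352). The call was lost without line #3, #6, #7, #9 or #10, with an adjusted p of up to 0.169. Hif1a was also the only member whose P12 value exceeded the parental value in 6 of 6 lines, against 6.46% of all genes, although that difference did not pass, with a log2 change of 0.50 (SE 0.26, adjusted p = 0.379). Slc16a1 was 1836 to 16701 (median 6925) in P12 cells, with a log2 change of -1.34 (SE 0.41, limma adjusted p = 0.0561) and an adjusted p of 0.0406 with the block. Line #4 went from the highest resistant value to the lowest P12 value, and line #9 alone was higher in P12 cells.

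Of the 16 glycolytic enzymes, Ldha included, 13 had a higher fitted level in P12 than in resistant cells, with a median log2 change of 0.22 next to 0.022 over all genes. Apart from Ldha none passed, with or without the block. Pgam1, with a log2 change of -0.01, changes sign when the samples are rescaled by the upper quartile. Pfkl had a log2 change of 0.62 (SE 0.27, adjusted p = 0.209), Eno1 0.46 (SE 0.23, adjusted p = 0.279) and Hk1 0.53 (SE 0.34, adjusted p = 0.425). Pfkp and Eno2, the 2 enzymes that were higher in resistant cells with the block, had log2 changes of -0.60 and -0.88. Of the hypoxia targets, Bnip3 had the largest upward difference, 1.38 (SE 0.49, adjusted p = 0.109), and was higher in 5 of 6 lines. Ddit4 had a log2 change of 1.07 (SE 0.68, adjusted p = 0.418).

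The third comparison set P12 against parental cells. No member passed either rule in limma, without the block or with it, while 0.114% of all genes passed the stricter rule and 0.658% passed at 0.05 without the block, and 0.523% and 5.32% with it. At an unadjusted p under 0.05 there were 4 of 36 members (11.1%), against 15.3% of all genes. The 4 were Hk2, Pfkm, Ldha and Pfkfb3. Hk2 was 1088 to 3873 (median 2138) in P12 cells, with a log2 change of -0.87 (SE 0.36, adjusted p = 0.255), and was lower than in parental cells in 5 of 6 lines. Lines #3, #4 and #6 were far below their parental values, and line #9 was above. Ldha had a log2 change of -0.68 (SE 0.27, adjusted p = 0.235) and was lower in 5 of 6 lines. Pfkm had a log2 change of 0.60 (SE 0.25, adjusted p = 0.262) and was higher in 5 of 6. For Pdk1 the difference was -0.15 (SE 0.56, adjusted p = 0.917) and for P4ha2 0.57 (SE 0.33, adjusted p = 0.43). A difference that missed the threshold is not shown to be absent, since the standard errors of the 36 members ran from 0.18 to 1.73 log2 units.

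P5 values were available for lines #3, #7 and #9 and are given as a description. Ldha in P5 cells of lines #3, #7 and #9 was 10225, 23636 and 25136, against 4594, 16188 and 7706 in the resistant cells of these lines. Pdk1 was 1296, 2232 and 802 in the same order, against 296, 402 and 44.6. Both were higher in P5 than in resistant cells in 3 of 3 lines. Pfkfb3 was 1039, 603 and 638, against 2973, 2528 and 1282. P4ha2 was 1707, 1550.3 and 2355, against 3585, 2487 and 9717. Both were lower in 3 of 3 lines, and nearer to the P12 than to the resistant value of the same line. In total 6 members were higher in P5 than in resistant cells in all 3 lines (Hif1a, Ldha, Pdk1, Pfkfb4, Pfkl and Pgk1), against 14.98% of all genes, and 4 were lower (Eno2, Ndrg1, P4ha2 and Pfkfb3), against 14.2%.

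A wider list of 69 other genes of glycolysis and the hypoxia response was examined, of which 58 were tested. Between resistant and parental cells 8 of 58 (13.8%) passed the stricter rule, 3 higher and 5 lower, against 5.3% of all genes, and 15 (25.9%) passed with the block against 10.5%. The 3 higher genes were Rora, Plod2 and Plod1. Rora, a nuclear receptor gene, was 2.96 to 53.0 (median 9.30) in parental and 55.2 to 519 (median 239.6) in resistant cells, with a log2 change of 4.07 (SE 0.78, limma adjusted p = 0.00194). Plod2 and Plod1 encode lysyl hydroxylases that, like the products of P4ha1 and P4ha2, modify collagen. Plod2 was 403 to 1795 (median 911) in parental and 2551 to 10193 (median 8694) in resistant cells, a log2 change of 2.84 (SE 0.63, limma adjusted p = 0.00541). Plod1 had a log2 change of 1.94 (SE 0.30, limma adjusted p = 0.000372). Neither range overlapped between the states for the 2 Plod genes, and both were higher in 6 of 6 lines, alongside Col1a1 and Dcn, whose part was not tested.

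Among the 5 lower genes, Pgf, a relative of Vegfa, was 75.1 to 243 (median 184) in parental and 4.24 to 20.8 (median 9.49) in resistant cells, with a log2 change of -3.99 (SE 0.69, limma adjusted p = 0.000843). No resistant sample reached the lowest parental one. Hkdc1, a hexokinase family member, was 58.8 to 868 (median 412) in parental and 2.18 to 203 (median 34.2) in resistant cells, with a log2 change of -3.66 (SE 0.86, limma adjusted p = 0.00771), and line #9 was the only line that was higher in the resistant state. Also lower were Bpgm, which makes 2,3-bisphosphoglycerate, and Pdp1, with a log2 change of -1.76 (SE 0.34, limma adjusted p = 0.00198). In P12 against resistant cells 3 of 58 (5.17%) passed the stricter rule against 2.13% of all genes, or 7 (12.1%) with the block against 4.52%. Pgf was 26.4 to 1327 (median 403) in P12 cells, a log2 change of 4.78 (SE 0.69, limma adjusted p = 0.000421). Pdp1, the phosphatase that reactivates pyruvate dehydrogenase and so opposes Pdk1, was higher in P12 cells as well, with a log2 change of 1.78 (SE 0.34, limma adjusted p = 0.00385). Plod1 was lower, with a log2 change of -1.42 (SE 0.30, limma adjusted p = 0.00792). Pdp1 and Pdk1, enzymes with opposite effects on pyruvate dehydrogenase, were thus both lower in resistant than in parental cells in 6 of 6 lines and both higher in P12 than in resistant cells in 6 of 6. Between P12 and parental cells no gene of the wider list passed the stricter rule in limma, against 0.114% of all genes. At an unadjusted p under 0.05 there were 12 of 58 (20.7%), against 15.3% of all genes. Bpgm passed at an adjusted p under 0.05, as did 0.658% of all genes. Its log2 change was -1.08 (SE 0.25, limma adjusted p = 0.0474).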

How the data were processed

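RNA of 6 murine PDAC cell lines was sequenced in 21 samples (parental 6, resistant 6, P5 3, P12 6) from stranded mRNA libraries. The authors deposited signal values, normalised gene-level counts made by quantification with Salmon 0.12 and scaling with DESeq2 1.18. They are not raw counts: 55.0% to 73.8% of low values (under 15) lay within 0.05 steps of whole reads, so no count test was run. The floor of 3 reads given as a limit of detection covers counting error only.

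Log2(value + 1) was fitted in limma 3.58.1 (R 4.3.3, trend, all 21 samples, 4 states) for genes of at least 10 in at least 3 samples, with Benjamini-Hochberg adjustment over 19300 genes. The fit was tested on simulated data. The study's methods name no line term, so the line as a block was an alternative. Samples of a line pair because they are the same cell line: deviations from the state means correlated on average at 0.241 (resistant and parental), 0.457 (P12 and resistant) and 0.316 (P12 and parental) within lines and at -0.046, -0.090 and -0.064 between lines.

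Other alternatives were the pseudocount, filter, scaling, trend, samples in the fit, call rule and lines left out. The 36 members and all lists were chosen with earlier results of these data known. Every member was named, with values for those called by either rule and for the 8 with the largest change, and of the wider list up to 6 genes a comparison past the stricter rule. Near-identical copies shared at least 200 31-mers with a member. Sequencers were not assigned to samples in the sources used here, so no comparison within sequencing batches was made. Some items, among them 1 allele of the mouse model and 1 gene of the wider list, are not reported here.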

Additional observations from a re-analysis of the deposited data

Results flagged for a closer look

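In 7 of 108 groups of 6 samples (6.48%), 1 sample lay far from the other 5 by Dixon's criterion, which chance alone gives in about 1 of 20 groups. Of the 7, 5 were samples of line #9. In resistant line #9 Slc16a3, the lactate exporter MCT4, was 7.92 against 1386 to 6043 in the other resistant samples, and in P12 line #9 it was 11.0 against 491 to 3753. Resistant line #9 was low for Pfkfb3, at 1282 against 2528 to 3638. The brain-type aldolase gene Aldoc was 74.5 in P12 line #9 against 507 to 1427, and Ndrg1 was 659.6 in parental line #9 against 1721 to 2287. The other 2 were high values. Slc16a1 was 36158 in resistant line #4 against 11471 to 17506, and Vegfa was 20357 in resistant line #10 against 3251 to 5841. Line #9 also had the lowest sum of epithelial markers in each of these states, 15942 in parental, 1014 in resistant and 489 in P12 cells, against medians of 246719, 62431 and 50681, and the part of that sum in these values was not tested.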

How the results depend on the processing

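The 12 calls of single members were recomputed under 17 alternatives, and 156 of the 204 comparisons kept the call, 48 lost it and 0 changed direction. P4ha2 and Pfkfb3 between resistant and parental cells, and Pfkfb3 between P12 and resistant cells, kept their calls under all 17. Ldha between resistant and parental cells lost the stricter call under 1, the compared states alone with the line as a block (adjusted p = 0.0102). The cause was not tested for any of these changes.

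Counts by the stricter rule moved more. For the first 2 comparisons the shares of all genes with the block and at 0.05 are given above. They were not computed for the other alternatives. For resistant against parental cells, 2 members in the fit reported (1 higher, 1 lower), the replicate block gave 6 (4 higher, 2 lower), an adjusted p under 0.05 with the same size limit gave 4 (2 higher, 2 lower) and without it 6 (2 higher, 4 lower). The number higher was 2 with genes of a mean of at least 100 alone and with the compared states alone, and the number lower was 2 after upper quartile rescaling. The compared states alone with the block gave 3 higher and 0 lower. Leaving out 1 line gave 2 to 4 called, 1 to 2 higher and 1 to 2 lower. For P12 against resistant cells, 2 members (0 higher, 2 lower), the compared states alone gave 1, which was lower. An adjusted p under 0.05 gave 4 with the size limit (2 higher) and 6 without it (4 higher), and leaving out 1 line gave 1 to 2 called, 0 to 1 higher and 1 to 2 lower. The pairing by cell line changed no other count by the stricter rule. P12 against parental cells gave 0 under each alternative.

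Upper quartile rescaling moved the median of all genes from 0.022 to 0.11 between P12 and resistant cells, and Pgam1 and Car12 changed sign there. The P5 samples left out and the near-identical copies added, both chosen after seeing the data, gave the same counts. With 6 lines and the raw counts not in use, members near the thresholds, such as Pkm, Hk2 and P4ha1, are not settled either way. Values under about 4 normalised counts rest on about 3 reads or fewer.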
